A study of Mus musculus with 2 samples.

Results

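Forkhead transcription factors were examined in the pregnant mouse uterus at day 4, shortly before the embryo implants. Each of 2 mice of strain C57BL/6 gave 1 RNA sequencing library from the whole organ. The libraries, titled WT1 and WT2 and here called uterus 1 and uterus 2, form a single group with no treatment or genotype contrast, so the data describe levels and the spread between 2 animals. The genes were chosen by symbol: of the 22740 genes in the main table, 44 carry a symbol of the form Fox, a letter from a to s and a number, and 41 remained after Foxa2, Foxo1 and Foxp3 were left out.

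Forkhead factors share a winged-helix DNA-binding domain, whose recognition helix lies in the major groove of DNA. Several of them can bind closed chromatin and open it for other factors. FOXO proteins are held in the cytoplasm when insulin or growth factor signals activate the kinase AKT, FOXM1 drives entry into mitosis, and FOXF and FOXL1 proteins are mesenchymal factors that answer to hedgehog ligands. In the uterus, forkhead factors are known for roles in gland formation, in stromal decidualization and in cycling cells.

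A stretch of the recognition helix is shown first, because this helix is the part by which these proteins read DNA. A pattern for the conserved core of the recognition helix was found in the coding sequence of 34 of 41 genes (GENCODE M1 transcripts on NCBIM37), and 8 codons, 24 bases, were read from each. The pattern did not match Foxh1, Foxl1, Foxp1, Foxp2, Foxp4, Foxr1 and Foxr2. Capitals mark bases that differ from the commonest base at that position among the 34 genes. The first 3 genes below were among the 5 highest by mean, Foxl2 lay in the middle and the last 2 were listed at 0.
Foxn3: aactcAGtGAgAcacaacTtgtcA
Foxo3: aactccatccgGcacaacctgtcc
Foxk2: aaTtcAatTcgccacaaTctCtcT
Foxl2: aaTAGcatccgccacaacctCAGc
Foxa1: aactccatccgccacTCGctgtcc
Foxf2: aactccGtGcgccacaacctCtcG
The Foxo3 stretch lies at chr10:41917684-41917707 on the minus strand and the Foxn3 stretch at chr12:100626613-100626636 on the minus strand. Differences from the commonest bases numbered 131 over the 34 genes, and 87 of them (66.4%) fell on the third base of a codon. The encoded peptide was the commonest one in 21 of 34 genes, among them 9 of the 12 matched genes detected in both uteri and 7 of the 15 listed at 0. The pattern used to find the stretch itself limits the differing bases and the peptide, so conservation across the family was not tested. The number of differing bases had a median of 4.5 (1 to 8) in the 12 detected genes and of 4 (0 to 6) in the 15 listed at 0, so the ranges overlapped.

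A gene was called detected at 1 RPKM (reads scaled to transcript length and library size) in both uteri. Of the 41 forkhead genes, 14 (34.1%) were detected, where 58.4% of all genes in the table were. Another 2, Foxc1 and Foxd2, passed 1 RPKM in uterus 2 alone, 8 lay above 0 and under 1 RPKM, and 17 (41.5%) were listed at 0 in both uteri, where 23.4% of all genes were. The level of 10 RPKM in both uteri was reached by 7 factors, 17.1% of the family, and by 30.4% of all genes. The median forkhead gene lay at 0.254 ± 0.0839 RPKM (SD, n = 2), beside 3.26 ± 0.0405 RPKM over all genes. Both medians include genes listed at 0. Without genes at 0 in either uterus the forkhead median was 6.71 RPKM, and the median of all genes was not taken that way. Among other transcription factor families taken by symbol, 23 of 33 Kruppel-like, Sp and Egr genes (69.7%), 14 of 23 nuclear receptor genes with Nr symbols (60.9%) and 20 of 39 Hox genes (51.3%) were detected. These shares are descriptions of fixed sets of genes and were not tested against each other.

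**Figure D1:**
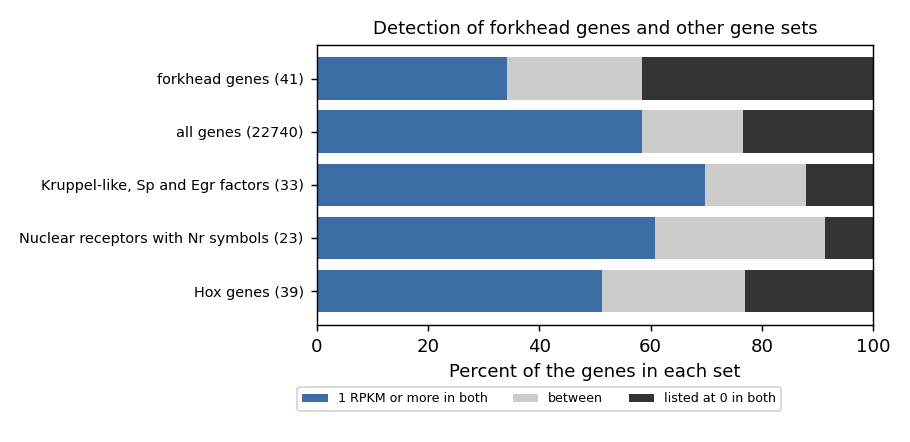
Percent of genes at 1 RPKM or more in both uteri (blue), listed at 0 in both (black) or between (grey), for 41 forkhead genes, all 22740 genes and 3 other transcription factor families, with the number of genes in parentheses. The blue part covers 34.1% of forkhead genes and 58.4% of all genes.

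The reads behind each value could be recovered, since an RPKM value is a whole number of reads divided by a transcript length and by a library total. The scaling totals were 3834174 in uterus 1 and 4256101 in uterus 2. All 24 forkhead genes above 0 resolved to whole reads, 2592 in uterus 1 and 2890 in uterus 2 in all. For 9 of them a single transcript length was possible. The other 15 allowed 2 to 9 lengths, and the length nearest an annotated one was taken, so their reads and counting intervals, though not their RPKM, depend on that choice. Intervals given below are 95% exact Poisson intervals, or exact binomial intervals for a ratio, and cover counting error only. Of the markers of the labelled tissue, all 5 stromal, 5 smooth muscle, 5 epithelial and 5 endothelial markers were detected in both uteri, with list medians of 517 ± 85.9, 282 ± 2.70, 49.5 ± 2.25 and 20.2 ± 3.87 RPKM. Of 5 leukocyte markers 3 were detected (list median 14.7 ± 0.740 RPKM), of 4 nerve markers 1 (0.628 ± 0.229 RPKM) and of 3 red blood cell markers 1, with the other two listed at 0. In whole tissue, fewer cells of a type and less RNA per cell cannot be told apart.

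**Figure D2:**
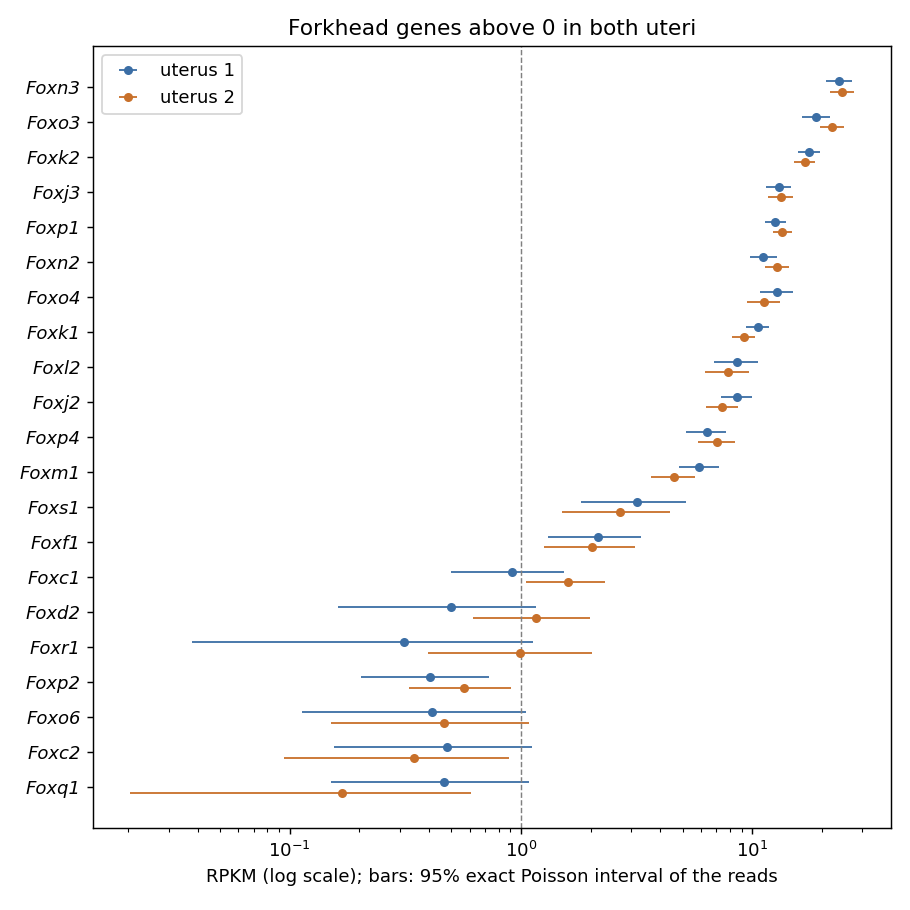
RPKM (log axis) of the 21 forkhead genes above 0 in both uteri, with blue points for uterus 1, orange points for uterus 2 and bars for 95% exact Poisson intervals of the reads. Foxn3 is highest at 23.9 and 24.6 RPKM, and below the dashed line at 1 RPKM the bars span several-fold.

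A few of the 41 genes, which leave out Foxa2, Foxo1 and Foxp3, held most of their summed RPKM. How this compares with other gene families was not tested. Foxn3, Foxo3, Foxk2, Foxj3 and Foxp1 held 54.1% of the summed forkhead RPKM in uterus 1 and 56.2% in uterus 2. In reads summed over both uteri, which are not divided by length, the highest 5 were Foxp1, Foxk2, Foxk1, Foxn3 and Foxj3. They held 57.1% of the reads of these genes in uterus 1 and 56.3% in uterus 2. In uterus 2 alone, Foxn2 (278 reads) and Foxo3 (272 reads) stood above Foxj3 (269 reads). The length taken for Foxk1 was 7446 bases, against 2889 for Foxo3, and several lengths were possible for each.

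Among the checkpoint and cell cycle members, Foxn3 (NM_183186, chromosome 12, 100433304 to 100688284, minus strand), a repressor tied to the DNA damage checkpoint, was the highest of the 41 forkhead genes examined. It lay at 23.9 RPKM (239 reads) in uterus 1 and 24.6 RPKM (273 reads) in uterus 2. It ranked 3031 of 22740 genes by mean. Its relative Foxn2 (chromosome 17) lay at 11.2 and 12.8 RPKM on 218 and 278 reads. The thymic epithelial factor Foxn1 and the retinal factor Foxn4 of the same subfamily were listed at 0 in both, so the subfamily divided into 2 genes above 10 RPKM and 2 at 0. Foxm1 (NM_008021, chromosome 6, 128313012 to 128325904), the mitotic activator, lay at 5.92 RPKM (95% interval 4.81 to 7.20) in uterus 1 and 4.58 RPKM (3.65 to 5.66) in uterus 2. The ratio of uterus 2 to uterus 1 for Foxm1 was 0.773, and its interval of 0.572 to 1.04 includes 1.

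All 10 genes of a list of FOXM1 targets were detected, with a median of 9.20 ± 0.174 RPKM (SD, n = 2). By mean, Ccnb2 (14.0 and 14.2 RPKM) and Ccnb1 (12.6 and 12.3 RPKM), both mitotic cyclins, and the phosphatase gene Cdc25b (13.8 and 10.5 RPKM) were highest, though Cdk1 and Aurkb lay above Cdc25b in uterus 2. The centrosomal kinase gene Nek2 (4.41 and 3.31 RPKM) and the survivin gene Birc5 (6.34 and 5.09 RPKM) were lowest by mean, near the level of Foxm1 itself.

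The FOXO members are the insulin-responsive arm of the family. Foxo3 (NM_019740, chromosome 10, 41905592 to 41996548, minus strand), which activates stress resistance and cell cycle arrest genes, lay at 19.0 RPKM (210 reads) in uterus 1 and at 22.1 RPKM (272 reads) in uterus 2, below Foxn3 and above all other members. The ratio for Foxo3 was 1.17 (95% interval 0.971 to 1.40). Of 8 lengths possible for its model, 2889 bases was taken, and a GENCODE M1 transcript of the gene reaches 6848 bases. Foxo4 (chromosome X) lay at 12.8 and 11.2 RPKM on 155 and 151 reads. Foxo6, best known from brain, lay at 0.413 and 0.465 RPKM on 4 and 5 reads, far below both.

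The kinases and adaptors above FOXO were present throughout: all 15 genes of that list were detected, with a median of 17.5 ± 1.02 RPKM (SD, n = 2). Ywhaz, which encodes a 14-3-3 protein that holds FOXO in the cytoplasm, was highest at 111 and 101 RPKM, followed in order of mean by the kinase gene Akt1 at 79.4 and 70.5 RPKM and the PI3-kinase subunit gene Pik3r1 at 51.7 and 53.8 RPKM. By mean, the lowest were Pik3cb at 5.59 and 5.57 RPKM and Mapk8 at 9.79 and 10.4 RPKM. Of 16 FOXO targets, 14 were detected, with a median of 19.1 ± 0.146 RPKM. Txnip, an inhibitor of thioredoxin and glucose uptake, led at 127 and 168 RPKM, followed by Sesn3 (50.3 and 51.3 RPKM), a brake on mTORC1, and the catalase gene Cat (31.6 and 30.1 RPKM). The muscle ubiquitin ligase gene Trim63 lay at 0.553 and 0.498 RPKM, and Igfbp1, which decidual stroma makes in humans, was listed at 0 in both uteri.

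**Figure D3:**
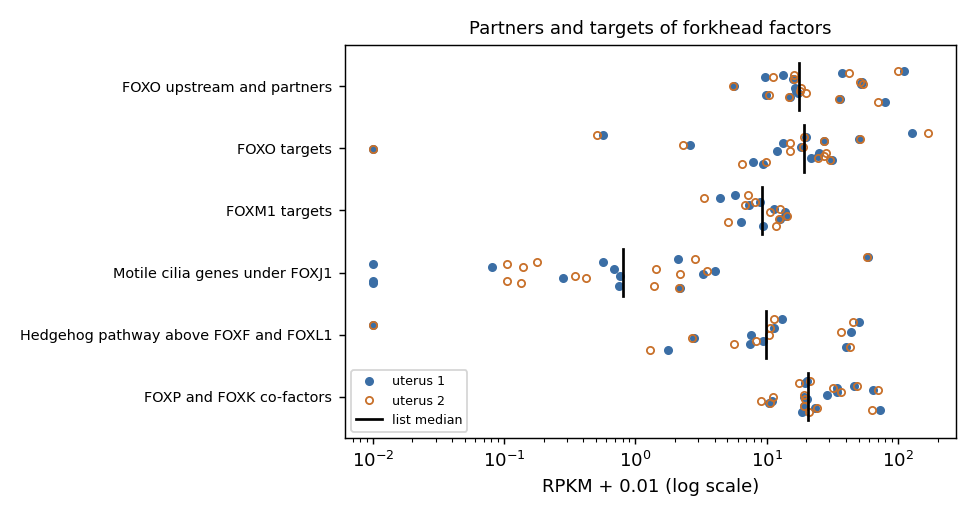
RPKM plus 0.01 (log axis) of genes in 6 lists of forkhead partners and targets, with filled points for uterus 1, open points for uterus 2 and a bar at each list's median. The list medians lie between 9.20 and 20.7 RPKM except for the motile cilia list at 0.796 RPKM, and points at the left edge are listed at 0.

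Both FOXK genes, repressors of autophagy and promoters of glycolysis, were detected. Foxk2 (NM_001080932, chromosome 11, 121121301 to 121171210) lay at 17.7 and 16.9 RPKM on 341 and 363 reads. Foxk1 (chromosome 5) lay at 10.6 and 9.21 RPKM on 302 and 292 reads, so Foxk2 was higher in each uterus. Of the FOXP genes, whose proteins pair through a leucine zipper, Foxp1 (NM_001197321, chromosome 6, 98875336 to 99216509, minus strand) lay at 12.6 and 13.5 RPKM on 361 and 431 reads. These were the most reads among the 41 forkhead genes examined. Foxp4 lay at 6.35 and 7.06 RPKM on 98 and 121 reads. Foxp2, known for its role in neural circuits, lay at 0.406 and 0.565 RPKM on 11 and 17 reads. Each of these 3 FOXP genes was nominally higher in uterus 2, and the ratio intervals of all 3 include 1 (0.933 to 1.24 for Foxp1, 0.845 to 1.47 for Foxp4 and 0.615 to 3.29 for Foxp2).

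All 15 genes of a list of FOXP and FOXK co-factors were detected, with a median of 20.7 ± 0.449 RPKM (SD, n = 2). The corepressor gene Ctbp1 (72.4 and 63.3 RPKM), the deacetylase gene Hdac2 (64.3 and 70.1 RPKM) and the nucleosome remodelling subunit gene Mta2 (46.0 and 48.9 RPKM) were highest by mean. The Dishevelled genes Dvl3 (11.0 and 9.07 RPKM) and Dvl2 (10.4 and 10.6 RPKM), whose products FOXK proteins carry into the nucleus, were lowest by mean.

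Of the 3 FOXJ genes, 2 were detected. Foxj3 (chromosome 4), which is expressed in many tissues and acts in germ cells and muscle, lay at 13.0 and 13.3 RPKM on 238 and 269 reads, and Foxj2 (chromosome 6) at 8.58 and 7.41 RPKM on 165 and 158 reads. Foxj1, the master factor of motile cilia, was listed at 0 in both uteri. Of a list of 17 motile cilia genes 14 were measured. Dnah5, Dnah9 and Dnah11 had no value under those symbols, so the list median leaves them out. The median of the 14 lay at 0.796 ± 0.131 RPKM (SD, n = 2), and 5 of the 14 were detected. Tppp3, a tubulin-binding protein also made outside ciliated cells, was far above the rest at 58.6 and 58.3 RPKM, followed in order of mean by the regulatory factor genes Rfx3 (4.02 and 3.50 RPKM) and Rfx2 (3.27 and 2.17 RPKM). The axonemal genes Dnaic1 and Spag6 were lowest by mean, each listed at 0 in uterus 1 and resting on 1 read in uterus 2.

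Foxl2 (NM_012020, chromosome 9, 98856026 to 98858545), a single-exon gene best known as the factor that maintains ovarian granulosa cells and also made in uterine stroma and muscle, lay at 8.59 RPKM (83 reads) in uterus 1 and at 7.83 RPKM (84 reads) in uterus 2. The intervals were 6.84 to 10.6 and 6.25 to 9.70 RPKM, so both uteri were well above the detection threshold. Of 6 ovary and oviduct markers, 3 were detected, and the 6 summed to 11.3 RPKM in uterus 1 and 16.6 RPKM in uterus 2. Cyp19a1 and Fshr were listed at 0 in both. Of these markers, Ovgp1 lay at 5.78 and 9.31 RPKM, Star at 2.93 and 3.87 RPKM, Inha at 1.78 and 2.73 RPKM and Amh at 0.783 and 0.706 RPKM. The part of ovary or oviduct tissue in the level of Foxl2 was not tested.

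Foxl2 starts head to head with a non-coding gene, Foxl2os (NR_003248, chromosome 9, 98849574 to 98855729, minus strand), whose start position is 297 bases from its own. Foxl2os lay at 11.7 and 9.76 RPKM on 167 and 155 reads, nominally above Foxl2 in each uterus. The 2 genes do not overlap in the table, where the sole overlap of a forkhead gene is that of Foxm1 with 4933413G19Rik (0 and 0.215 RPKM) on the same strand. The 296 bases between them are shown because both transcripts depart from this stretch. It is chr9:98855730-98856025 on NCBIM37, plus strand, read toward Foxl2, with each CG dinucleotide in capitals.
Foxl2 to Foxl2os interval: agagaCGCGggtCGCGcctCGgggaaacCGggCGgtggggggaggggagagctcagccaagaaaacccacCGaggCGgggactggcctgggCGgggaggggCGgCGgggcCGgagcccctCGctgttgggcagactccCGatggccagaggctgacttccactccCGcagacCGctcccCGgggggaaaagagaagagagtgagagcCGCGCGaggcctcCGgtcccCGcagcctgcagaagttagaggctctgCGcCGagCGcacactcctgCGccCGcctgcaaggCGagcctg
The interval holds 29 CG dinucleotides, 0.767 of the number its base composition would give, and 72.0% of its bases are G or C. Neither TGTTTAC, a form of the forkhead core motif, nor TATAAA was found on either strand of it.

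Head-to-head starts within 1 kb were found for 6 of 41 forkhead genes (14.6%), beside 9.28% of all genes. Foxd2, a mesenchymal factor, is paired with the non-coding 9130206I24Rik (NR_030721) at 391 bases. Foxd2 lay at 0.498 and 1.17 RPKM on 5 and 13 reads, and 9130206I24Rik at 1.72 and 2.04 RPKM on 19 and 25 reads. The non-coding partner was again nominally the higher of the pair in each uterus. Counting intervals of partners were not compared, so the order within pairs was not tested. The 250 bases before Foxd2, chr4:114581504-114581753 on the minus strand of NCBIM37, lie inside the gap between these starts and are shown for comparison with the Foxl2 interval, CG again in capitals.
Foxd2 upstream: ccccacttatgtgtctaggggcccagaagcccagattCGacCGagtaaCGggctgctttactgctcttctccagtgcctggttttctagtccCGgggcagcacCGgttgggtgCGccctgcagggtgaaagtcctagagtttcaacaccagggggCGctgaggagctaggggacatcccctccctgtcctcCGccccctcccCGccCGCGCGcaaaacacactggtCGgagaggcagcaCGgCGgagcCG
It holds 16 CG dinucleotides in 250 bases, 0.619 of the number its composition would give, and is 64.4% G or C. Foxm1 starts 172 bases from Rhno1 (NR_027360), a gene that acts in the replication stress response, which lay at 9.73 and 9.72 RPKM on 73 and 81 reads, above Foxm1. Foxj3 was the reverse case, at 13.0 and 13.3 RPKM beside 1.51 and 1.48 RPKM for AA415398. Foxa3, a liver factor, rested on 1 read and 0 reads beside 25.3 and 26.8 RPKM for Sympk, and Foxb1 and its partner B230323A14Rik were both listed at 0.

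**Figure D4:**
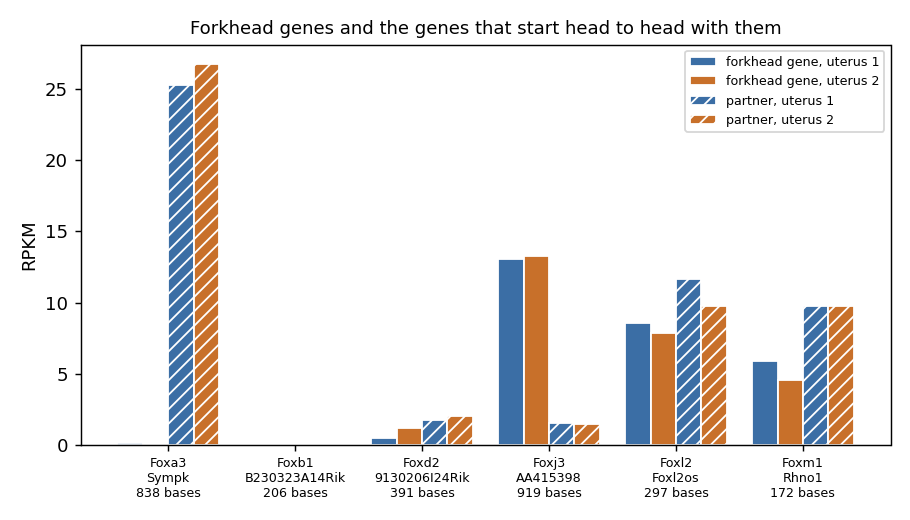
RPKM of the 6 forkhead genes (plain bars) with a gene starting head to head within 1 kb and of that partner (hatched bars), in uterus 1 (blue) and uterus 2 (orange), with the distance between starts under each pair. Foxl2os, Rhno1, 9130206I24Rik and Sympk stand above their forkhead neighbours in both uteri, whereas AA415398 stands below Foxj3.

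RefSeq promoter sequences (GRCm38.p6, from 250 bases before to 50 bases after the start) were matched for 25 of 41 forkhead genes, 27 promoters in all. They held a median of 22 CG dinucleotides in 300 bases, against 7 over 32851 promoters of all genes. By level, the median was 34 in 10 promoters of 8 genes detected in both uteri and 11 in 12 promoters of genes listed at 0. The ranges overlapped: Foxn3, the highest of the 41 forkhead genes, had 6 and Foxi3, listed at 0, had 31. TGTTTAC was found on either strand in 1 of the 27 promoters (3.70%), that of Foxa1, and in 3.65% of all promoters. TATAAA was found in 1 of 27 (Foxa3, 3.70%) and in 13.6% of all.

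Foxf1 (NM_010426, chromosome 8, 123608286 to 123612054), a hedgehog-responsive factor of mesenchyme, lay at 2.15 and 2.03 RPKM on 20 and 21 reads. Its neighbour Fendrr, a non-coding gene 1353 bases away on the opposite strand, lay at 1.42 and 0.790 RPKM on 13 and 8 reads. Foxc2, a factor of lymphatic valves 28016 bases from Foxf1, lay at 0.479 and 0.345 RPKM on 5 and 4 reads, and Foxl1, a factor of gut mesenchyme 8790 bases beyond Foxc2, was listed at 0. Within this block on chromosome 8 the order of levels was Foxf1, Foxc2, Foxl1 in both uteri, though Foxc2 rests on a handful of reads.

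A second block, on chromosome 13, holds Foxq1, Foxf2 and Foxc1 with gaps of 64841 and 175239 bases. Foxq1 lay at 0.465 and 0.168 RPKM on 5 and 2 reads. Foxf2, the closest relative of Foxf1, was listed at 0 in both uteri. Foxc1, which acts in mesenchyme and vessels, lay at 0.915 RPKM in uterus 1 (14 reads, upper end of the interval 1.54) and 1.59 RPKM in uterus 2 (27 reads, interval 1.05 to 2.31). Foxs1 (chromosome 2), a factor of cells around vessels and of neural crest, lay at 3.18 and 2.69 RPKM on 16 and 15 reads. Its interval in uterus 1, 1.82 to 5.17 RPKM, overlapped that of Foxf1, 1.31 to 3.32 RPKM, so the order of these 2 is not settled at this depth.

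Of 11 genes of the hedgehog pathway above FOXF and FOXL1, 10 were detected, with a median of 9.83 ± 0.776 RPKM (SD, n = 2). The signal transducer gene Smo (50.5 and 45.5 RPKM), the target and transcription factor gene Gli1 (40.1 and 42.9 RPKM) and the receptor gene Ptch1 (43.6 and 36.9 RPKM) were highest by mean. Of the 3 ligand genes, Shh was listed at 0, Dhh lay at 1.76 and 1.29 RPKM, and Ihh, named here after its values were seen, lay at 7.58 and 10.4 RPKM on 71 and 108 reads.

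The 17 genes listed at 0 in both uteri include many known from other organs or from the embryo: Foxa1 (endoderm and hormone-responsive epithelia), Foxb1 (brain), Foxb2, Foxd1 (kidney stroma), Foxd4, Foxe1 (thyroid), Foxe3 (lens), Foxf2, Foxi1 (ionocytes), Foxi2, Foxi3 (ectoderm), Foxj1, Foxl1, Foxn1, Foxn4 and Foxr2. On the longest annotated transcript of each, 3 reads, the limit taken for a count of 0, would be worth 0.177 to 0.801 RPKM. This limit is lower than the upper end of the 95% exact Poisson interval at 0 reads, and a shorter transcript would raise it. The table also lists at 0 the ribosomal protein gene Rpl26 and the globin genes Hba-a1 and Hbb-b1, so a listed 0 is not read as absence. Foxa3, Foxd3 and Foxh1, a SMAD partner in early embryos, each rested on 1 read in 1 of the 2 uteri. Foxr1 lay at 0.313 and 0.987 RPKM on 2 and 7 reads.

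Ordered by mean, the 15 genes whose mean reached 1 RPKM ran from Foxn3 through Foxo3, Foxk2, Foxj3, Foxp1, Foxn2, Foxo4, Foxk1, Foxl2, Foxj2, Foxp4, Foxm1, Foxs1 and Foxf1 to Foxc1. In 4 of the 14 neighbouring pairs of this order the values of the 2 uteri overlapped: Foxj3 and Foxp1, Foxp1 and Foxn2, Foxn2 and Foxo4, and Foxl2 and Foxj2. Within a uterus, the counting intervals of neighbours overlapped in 13 of 14 pairs in uterus 1, all but Foxk2 and Foxj3, and in 11 of 14 in uterus 2, where those of Foxo3 and Foxk2 and of Foxp4 and Foxm1 were also apart.

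Among these 15 genes, 0 were at least 2-fold apart between the 2 uteri on the scale of log2 (RPKM + 0.1), where 2.6% of 13647 genes were, a share near that of all genes for a set of this size. The median log2 ratio of uterus 2 over uterus 1 was -0.06, beside 0.00067 over all these genes, with 7 of the 15 above and 8 below a ratio of 1. The SD of the log2 ratio was 0.27 over the 15 genes and 0.48 over the 10617 genes between 1 RPKM and the level of Foxn3, and the median size of the log2 ratio was 0.19 in both sets. The counting interval of the ratio included 1 for all 15. Foxc1 was farthest apart at a log2 ratio of 0.74 on that scale. Without the pseudocount its ratio was 1.74, with a counting interval of 0.880 to 3.58. Foxm1 was next at a log2 ratio of -0.36. Among genes with a mean below 1 RPKM, Foxa3, Foxd2, Foxh1, Foxq1 and Foxr1 were more than 2-fold apart, which makes 5 of the 24 genes above 0 (20.8%), where 10.6% of 17426 genes were. These 5 rest on 0 to 13 reads in a library, and the 3 with reads in both uteri had ratio intervals that include 1.

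**Figure D5:**
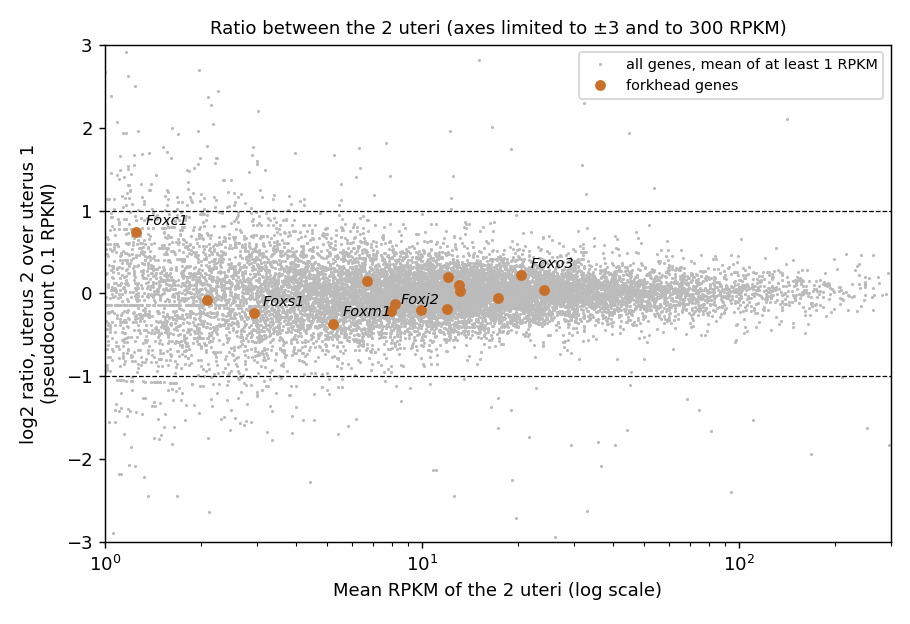
Log2 ratio of uterus 2 over uterus 1 (pseudocount 0.1 RPKM) against mean RPKM (log axis) for genes whose mean reached 1 RPKM, grey for all genes and orange for the 15 forkhead genes, with dashed lines at 2-fold. All 15 orange points lie between the dashed lines, from -0.36 for Foxm1 to 0.74 for Foxc1.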

How the data were processed

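Both deposited tables hold RPKM values that the authors made, per the series' design text, and all 22740 shared symbols have identical values. The submitters' processing notes name TopHat, edgeR and mm9, with no versions. How reads were counted, against which annotation and with or without strand, is not given in the sources used here. Coordinates are counted from 1 on NCBIM37 (mm9), and deposited starts were read as counted from 0. All value columns were matched to a library.

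Library totals were taken from single-exon genes, as the commonest total at which their lowest values were single reads. A gene's transcript length was the whole number, up to its span, at which both libraries held whole reads within 1e-06, nearest to a GENCODE M1 length where several did. This resolved 99.8% of 17426 genes above 0. On simulated data for 2000 genes, with the true length given as the annotated one, reads were recovered for 2000, which does not test the choice among several lengths. Reads summed to 3885134 and 4317840.

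Named genes were all members with a mean of at least 1 RPKM, groups of lower members, and the 3 highest and 2 lowest of each list of partners and targets. Cdk1, Aurkb, Ihh and the ovary and oviduct markers were also named, as were neighbouring genes and genes used as checks. One member listed at 0 is counted but not reported by name here. Members and lists were chosen with earlier results of these data known. With 1 group there is no test between groups. Python 3.11.15, pandas 2.3.3, NumPy 2.4.6 and SciPy 1.17.1 were used.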

Additional observations from a re-analysis of the deposited data

How the results depend on the processing

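The count of 14 detected forkhead genes was 15 at 0.5 RPKM, 14 at 2 RPKM, 16 on the TPM scale, 14 in the annotated table, and 14 to 16 with either library alone. The median forkhead level was 6.71 RPKM when genes listed at 0 in either library were left out, a step that removes the lowest genes by construction. TPM changes the unit and multiplied every level by 2.37 or 2.36, to a median of 0.601 for forkhead genes, 41.4 for FOXO upstream genes, 45.1 for FOXO targets, 21.8 for FOXM1 targets, 1.88 for motile cilia genes, 23.3 for the hedgehog pathway and 48.9 for FOXP and FOXK co-factors. The share of the highest 5 was 56.7% in reads against 55.2% in RPKM. No filter gave 5 genes at least 2-fold apart, against 0 with pseudocounts of 0.01 and 1 and at a mean of 10 RPKM. The median log2 ratio was positive without a filter (0.033) and at a mean of 10 RPKM (0.041), against -0.06, so no direction is given for the family. The cause was not tested. Taking either library alone keeps a mean of 2 within 1 SD by construction. With 2 libraries and few reads under 1 RPKM, low genes cannot be ordered. No paired analysis was possible because both libraries belong to a single group.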
